A study of Homo sapiens with 3 samples.

Results

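A set of 8 genes of prostate identity was followed in PC-3, a human prostate cancer line that grows without androgen. They were taken by name, 8 of the 18331 gene identifiers in the deposited tables, as prostate lineage factors (HOXB13, FOXA1) and as genes known to respond to androgen or to mark the prostate epithelium (TMPRSS2, FKBP5, STEAP1, STEAP2, FOLH1, SLC45A3). All 8 were listed in each of the 3 libraries, and 7 passed the filter on low counts (10 counts or more in at least 1 library, after scaling for depth), FOLH1 being the exception. The libraries came from PC-3 cells infected with lentivirus and collected after 7 days. One group was 2 libraries labelled KMT2D shRNA and KMT2D deficiency, called library 1 and library 2 here. The other was 1 library labelled control shRNA and KMT2D normal. Every library was of 1 cell line, and the labels do not say whether the shRNA libraries differ by hairpin or by culture. The edgeR p-values rest on the spread between these libraries, which may be technical. That spread was pooled largely over all genes and hardly reflects the spread of each single gene. The control had no replicate and was assumed to vary like the other 2.

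Androgen keeps the prostate epithelium differentiated and turns on a set of secretory and metabolic genes there. FOXA1, a pioneer factor, opens chromatin at the enhancers of those genes, and HOXB13, a homeodomain factor, binds many of the same sites. TMPRSS2, FKBP5 and SLC45A3 are classic androgen-induced genes of the prostate. KMT2D, the gene named by the shRNA, encodes a histone methyltransferase that marks enhancers.

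KLK3 and KLK2, which encode prostate-specific antigen and its sister protease, were listed in 0 of the 3 tables. KLK4, another protease of the prostate lumen, had 5 and 4 counts in libraries 1 and 2, against 4 in the control, where 3 counts, the floor used here, were worth 0.545 to 0.591 CPM over the 3 libraries (CPM being counts scaled to library size, here by TMM). NR3C1, the glucocorticoid receptor, had 292 and 292 counts in libraries 1 and 2, against 225 in the control. The NR3C1 log2 change of 0.47 (edgeR SE 0.19) missed the threshold in edgeR's quasi-likelihood test (adjusted p = 0.0526), and it was 0.08 net of the length trend (adjusted p = 0.815). The mineralocorticoid receptor NR3C2 (0.72, edgeR adjusted p = 0.0671, or 0.39 and 0.414 net of the trend) and ESR2, an oestrogen receptor (1.34, adjusted p = 0.246, or 1.54 and 0.203), did not pass either.

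KMT2D was not lower where the label says so: it had 107 and 138 CPM in libraries 1 and 2, against 100.1 CPM in the control (log2 fold change 0.29, SE 0.18, edgeR adjusted p = 0.227). Directions below are therefore those of the libraries labelled KMT2D shRNA, not of a measured loss of KMT2D. Library totals were 5157528, 5123836 and 5559499 counts. Fold change followed transcript length (Spearman coefficients across 14058 genes of 0.454 and 0.459, genes not being independent replicates), and values or calls net of this trend are given for the tested members and for other calls that it ends or moves by over 1.5 times. KMT2D then read -0.60 and passed (edgeR adjusted p = 0.00922). Its transcript of 19432 bases lies where the trend was 0.89 and 0.90 in libraries 1 and 2. Whether KMT2D read lower thus depended on the fit. All 22 interferon response genes fell, with summed levels of 1040 and 1049 CPM in libraries 1 and 2 against 19024 CPM in the control. The part of that difference in the results below was not tested. The epithelial keratin genes KRT8 and KRT18 were abundant but fell, 2 of 4 epithelial markers, where 14.5% of all tested genes fell. KRT8 had 193 and 225 CPM in libraries 1 and 2, against 331 CPM in the control (log2 fold change -0.67, edgeR adjusted p = 0.00158, or -0.41 and 0.0795 net of the trend). KRT18 read -0.88 (edgeR adjusted p = 3.19e-05, or -0.55 and 0.0117 net of the trend). Defining genes of other cells were low or not listed: basal, neuroendocrine, leukocyte and endothelial marker lists summed to between 1.09 and 34.9 CPM per library, the last 2 mostly LYZ and a single endothelial gene. Of the fibroblast markers, COL1A1 accounted for most of the 409 to 433 CPM, and PDGFRA, a growth factor receptor, rose to 39.0 and 47.1 CPM, against 10.4 CPM in the control (edgeR adjusted p = 2.57e-09). The series text calls these profiles retinal, but RCVRN, the recoverin gene of photoreceptors, was listed in 0 tables, and the retina list summed to 25.2 and 24.2 CPM in libraries 1 and 2 against 33.8 CPM in the control. Its member CRX, a photoreceptor factor, fell (log2 fold change -0.80, edgeR adjusted p = 0.0135), but DESeq2 did not call it (adjusted p = 0.400).

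Of the 7 tested genes, HOXB13 and FKBP5 rose, STEAP1 fell and 4 did not pass the threshold. That is 2 higher where 16.6% of all 14058 tested genes were called higher, and 1 lower where 14.5% were called lower (31.1% in either direction), so the number of calls among these genes was near the background. The median log2 fold change of the 7 was 0.28, against -0.01 over all tested genes. Net of the length trend the median was 0.22 against 0.02, and only the call of HOXB13 remained of the 3 (1 higher against a background of 10.2%, 0 lower against 9.42%, and 19.6% in either direction). In the same fit 2 of the 7 were higher and 1 lower at an unadjusted p under 0.05, where 2332 and 2089 of the 14058 genes were, so that count too was near the background. DESeq2 called 1 higher and 0 lower, where it called 5.37% of all genes higher and 3.27% lower (8.64% in all).

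**Figure D1:**
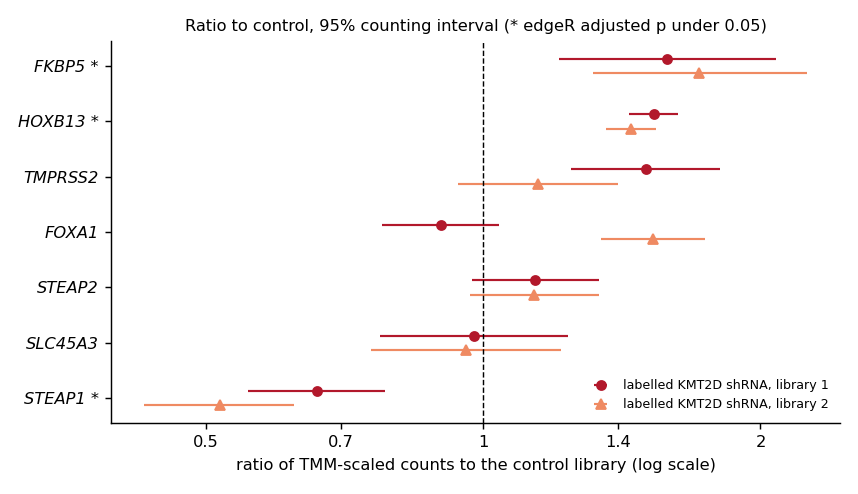
Ratio of TMM-scaled counts in each library labelled KMT2D shRNA to the control library (log axis), for the 7 tested genes, with 95% intervals that cover counting error only; an asterisk marks an edgeR adjusted p under 0.05. FKBP5 and HOXB13 lie right of 1 and STEAP1 left of 1 in both libraries, while FOXA1 lies at 0.899 in library 1 and at 1.53 in library 2.

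Levels can be compared between genes only per length, and FPKM (fragments per kilobase of transcript, scaled to library depth), the authors' deposited measure, gave a range from HOXB13 to FOLH1. HOXB13 had 163 and 150.5 FPKM in libraries 1 and 2, against 104 FPKM in the control, so that 370, 411 and 773 listed genes stood above it. STEAP1 followed in the control at 49.0 FPKM and FOXA1 came next at 21.3 FPKM. In libraries 1 and 2 these genes overlapped, STEAP1 at 33.2 and 25.35 FPKM and FOXA1 at 19.7 and 32.6 FPKM, so their order there was not resolved. TMPRSS2 came next with 16.9 and 12.55 FPKM, against 10.9 FPKM in the control. STEAP2 (9.14 and 9.0 FPKM, against 8.37) and SLC45A3 (8.12 and 7.78 FPKM, against 8.09) lay close together, and FKBP5 lay below them (5.79 and 6.07 FPKM, against 3.02). FOLH1 was apart from the rest at 0.23 and 0.17 FPKM, against 0.21 FPKM in the control. By rank among listed genes in the control, HOXB13 stood at percentile 95.5, STEAP1 at 89.5, FKBP5 at 37.6 and FOLH1 at 8.98. Thus the lineage factor with the highest level stood among the top genes of the cell, while FOLH1, the gene of prostate-specific membrane antigen, stood near the bottom.

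**Figure D2:**
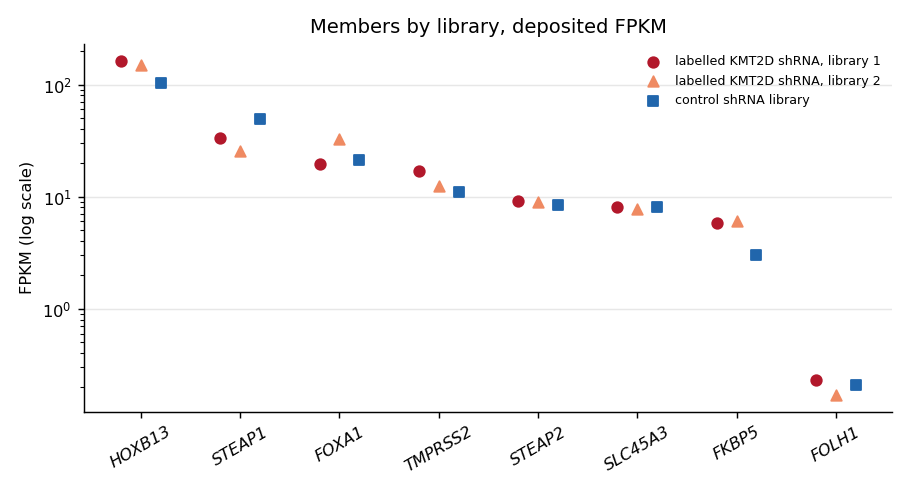
Deposited FPKM (log axis) of the 8 genes in the 2 libraries labelled KMT2D shRNA and the control library, ordered by the control; each point is 1 library. HOXB13 is highest at 104 to 163 FPKM, 6 genes lie between 3.02 and 49.0 FPKM, and FOLH1 lies at 0.17 to 0.23 FPKM.

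HOXB13, the posterior homeobox factor that marks the prostate, was higher in both libraries labelled KMT2D shRNA. It had 2573 and 2357 counts in libraries 1 and 2, against 1767 in the control, the deepest coverage of the 8 genes. The ratio to the control was 1.53 in library 1 (95% counting interval 1.44 to 1.63) and 1.45 in library 2 (1.36 to 1.54), and the groups did not overlap. HOXB13 averaged 478 ± 19.1 CPM (SD, n = 2), against 321 CPM in the control, a log2 change of 0.57 (edgeR SE 0.17, adjusted p = 0.00676). Its transcript of 3047 bases lies where the length trend is near 0 (-0.03 and 0.00 in libraries 1 and 2), and with the trend taken out it read 0.59 (edgeR adjusted p = 0.00838). DESeq2 called it only just under the threshold (0.58, adjusted p = 0.0495). The call was lost without a filter on low counts (edgeR adjusted p = 0.0575) and by limma on FPKM (adjusted p = 0.0900 and 0.147), with values of 0.58 to 0.60.

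The rest of the HOXB cluster stood far below HOXB13. HOXB6, a factor of more anterior body segments, had the next highest FPKM in the control, with 7.41 and 9.55 FPKM in libraries 1 and 2, against 9.42 FPKM in the control. Among 6 tested HOXB genes HOXB13 rose and HOXB9 fell, against the backgrounds given above. HOXB9, another posterior member, had 12.6 and 14.6 CPM, against 22.9 CPM in the control, a log2 change of -0.75 (edgeR SE 0.24, adjusted p = 0.0137). HOXB9 and HOXB13 are of the same cluster and were called in opposite directions in this fit. The HOXB9 call was lost by DESeq2 (adjusted p = 0.408) and without a filter on low counts (edgeR adjusted p = 0.0814). It was also lost by limma on FPKM (adjusted p = 0.0833 and 0.128). PRAC1, a small gene expressed in prostate and rectum that stands next to HOXB13 in the RefSeq order, had 24.8 and 26.4 CPM in libraries 1 and 2, against 37.2 CPM. PRAC1 is outside the rule for named genes and is given for its position. Its log2 fold change was -0.54 (edgeR adjusted p = 0.0409) and 0.05 net of the length trend (adjusted p = 0.908).

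FOXA1, the forkhead pioneer factor of the prostate, was unlike in the libraries labelled KMT2D shRNA. It had 346 counts in library 1 and 570 in library 2, against 405 in the control. The ratio to the control was 0.899 in library 1 (95% counting interval 0.776 to 1.04) and 1.53 in library 2 (1.34 to 1.74), so the control lay between them. FOXA1 averaged 89.2 ± 32.7 CPM (SD, n = 2), against 73.6 CPM in the control, a log2 change of 0.28 (edgeR SE 0.20) that did not pass (adjusted p = 0.308), and of 0.22 net of the length trend (adjusted p = 0.478). The value is 0.61 from library 2 alone and -0.15 from library 1 alone. Library 2 over library 1 was 1.70 (95% counting interval 1.48 to 1.95), and the absolute difference between these libraries was larger than that of 97.7% of the 11908 genes with a mean of 5 CPM or more. FOXA1 thus varied more within the group than nearly all genes above that cut-off, which were not matched to it for level. This compares 2 libraries and not conditions.

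FOXA2, a forkhead relative better known from liver and from neuroendocrine prostate tumours, was present at a higher FPKM than FOXA1 in all 3 libraries, with 41.3 and 37.8 FPKM in libraries 1 and 2, against 27.3 FPKM in the control. FOXA2 rose, with a log2 change of 0.51 (edgeR SE 0.18, adjusted p = 0.0265), or 0.63 net of the length trend (adjusted p = 0.00782). DESeq2 did not call FOXA2 (adjusted p = 0.269). FOXA3 had 0 counts in libraries 1 and 2, against 1 in the control. Of 22 tested prostate transcription factors (of 28 on the list, HOXB13 and FOXA1 among them) 7 rose, or 31.8% against a background of 16.6%, and ELF3 fell, and the list's median was 0.25 on the log2 scale. Net of the length trend 3 of the 22 rose and 1 fell, where 10.2% and 9.42% of all tested genes did. ONECUT2, a factor linked to androgen-independent prostate tumours, rose to 19.5 and 11.4 CPM, against 5.27 CPM in the control (log2 fold change 1.55, edgeR adjusted p = 0.000395). ETV1, an ETS factor, rose by 0.86 and GATA2, a zinc finger factor, by 0.64 on the log2 scale. Net of the length trend ONECUT2 read 0.73 (edgeR adjusted p = 0.132), ETV1 0.46 (0.126) and GATA2 0.59 (0.0533), so these calls ended. ELF3, an epithelial ETS factor, fell to 19.7 and 30.6 CPM, against 77.0 CPM in the control, a log2 fold change of -1.62 in both fits (edgeR adjusted p = 4.52e-09, or 4.50e-10 net of the length trend).

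TMPRSS2 encodes a serine protease of the cell surface whose androgen-driven promoter is the one most often fused to ERG in prostate cancer. It had 281 and 208 counts in libraries 1 and 2, against 197 in the control. The ratio was 1.5005 in library 1 (95% counting interval 1.25 to 1.81) and 1.15 in library 2 (0.938 to 1.3995), so the control was lowest but library 2 was not separated from it by counting error. TMPRSS2 averaged 47.3 ± 8.97 CPM (SD, n = 2), against 35.8 CPM, a log2 change of 0.40 (edgeR SE 0.20) that missed the threshold (adjusted p = 0.125), and of 0.38 net of the length trend (adjusted p = 0.184). The value is 0.58 from library 1 alone and 0.19 from library 2 alone. On the chromosome TMPRSS2 lies between MX1, an interferon-induced antiviral gene, and RIPK4, a kinase gene, both outside the rule for named genes. MX1 had 66.7 and 64.7 CPM in libraries 1 and 2 against 1701 CPM in the control, and RIPK4 had 174 and 183 CPM against 121 CPM (0.56, edgeR adjusted p = 0.0121, or 0.41 and 0.0926 net of the trend). TMPRSS2 thus sat beside a gene with a log2 fold change of -4.69 while its own estimate was positive. Of 5 tested type II serine proteases and inhibitors only SPINT2, a protease inhibitor, passed in any direction, where 31.1% of all tested genes did. SPINT2 fell to 114 and 151 CPM, against 237 CPM in the control (log2 fold change -0.84, SE 0.17, edgeR adjusted p = 0.00015).

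FKBP5 encodes an HSP90 co-chaperone of steroid receptors and is induced by androgen, glucocorticoid and progestin. It rose in the libraries labelled KMT2D shRNA, with 140 and 147 counts in libraries 1 and 2, against 93 in the control. The ratio was 1.58 in library 1 (95% counting interval 1.21 to 2.08) and 1.72 in library 2 (1.31 to 2.25), and both lay above the control. FKBP5 averaged 27.9 ± 1.57 CPM (SD, n = 2), against 16.9 CPM, a log2 change of 0.72 (edgeR SE 0.23, adjusted p = 0.0130). The trend for genes of its length was 0.27 and 0.25 on the log2 scale in libraries 1 and 2, and with that trend taken out FKBP5 read 0.46 and did not pass (edgeR adjusted p = 0.159). DESeq2 did not call it either (0.73, adjusted p = 0.333), and it passed in 3 of 8 alternatives with a test.

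The transcript length listed for FKBP5 also differed between libraries: 4639 and 4699 bases in libraries 1 and 2, against 5507 bases in the control, with 4 transcripts given for the gene. The FPKM ratio was for that reason larger than the count ratio, 1.92 and 2.01 in libraries 1 and 2. HOXB13, FOXA1, STEAP1 and SLC45A3, each with 1 transcript, had 1 length in all 3 libraries. RefSeq (GRCh38.p14) gives FKBP5 more than 1 start site on the minus strand, and the 250 bases before each are shown because the mix of its transcripts is what the listed length depends on. Capitals mark matches, on either strand, to CAATAAA (the HOXB13 core), CCAAT and GGGCGG (the GC box).
FKBP5 upstream start, chr6:35728584-35728833: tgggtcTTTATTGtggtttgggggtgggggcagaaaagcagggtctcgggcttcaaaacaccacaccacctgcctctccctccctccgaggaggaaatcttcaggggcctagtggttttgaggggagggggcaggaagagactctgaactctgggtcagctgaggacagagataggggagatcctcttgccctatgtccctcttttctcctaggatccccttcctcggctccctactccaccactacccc
FKBP5 downstream start, chr6:35688916-35689165: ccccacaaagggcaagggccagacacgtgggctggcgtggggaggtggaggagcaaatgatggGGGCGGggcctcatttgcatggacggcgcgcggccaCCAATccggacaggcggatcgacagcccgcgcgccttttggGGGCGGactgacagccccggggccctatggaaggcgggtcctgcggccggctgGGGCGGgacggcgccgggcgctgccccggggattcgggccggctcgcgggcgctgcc
The upstream window holds 1 HOXB13 core, on its other strand at position -244 from the start. The downstream window is richer in G and C (74.8% against 57.6%) and holds 29 CG pairs against 3, with a CCAAT box and 3 GC boxes. The median over all 35116 promoter windows was 58.0% G and C and 11 CG pairs. The full androgen and glucocorticoid response element, AGAACA and TGTTCT with 3 bases between them, is in 1 of those windows (0.00285%) and its arm AGAACA, on either strand, in 12.4% of them. Neither is in any of the 7 windows that matched 5 of the 8 genes (FOXA1, FKBP5, STEAP1, STEAP2, SLC45A3).

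The genes around FKBP5 in steroid signalling did not move with it as a block. Of 14 tested steroid receptor chaperones FKBP5 rose and 3 fell (7.14% and 21.4%, against 16.6% and 14.5% of all tested genes). The 3 were BAG1, an HSP70 co-chaperone, at a log2 fold change of -0.88, DNAJA1, an HSP40, at -0.51 and the ubiquitin ligase gene STUB1 at -0.50. Net of the length trend BAG1 alone passed (-1.03, edgeR adjusted p = 3.85e-05). DESeq2 called none of the 3 (adjusted p = 0.104 for BAG1, 0.177 for DNAJA1 and 0.25 for STUB1). Of 19 tested glucocorticoid-induced genes, FKBP5 and BCL6, a transcriptional repressor, rose, and 8 fell, or 42.1% against a background of 14.5%; the median of the list was -0.40 on the log2 scale. ANGPTL4, a lipase inhibitor, fell to 38.8 and 35.3 CPM, against 121 CPM in the control (log2 fold change -1.71, edgeR adjusted p = 2.12e-11). GADD45B, a stress gene, had a log2 fold change of -1.25 and CEBPD, a transcription factor gene, of -1.17. Net of the length trend, 5 of the 19 passed, all lower, where 9.42% of all tested genes were called lower, and FKBP5 did not pass.

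Androgen-induced genes as a wider list were mixed. The list held 100 genes, with FKBP5 and TMPRSS2 but not SLC45A3 among them. Of 95 tested genes 27 rose, or 28.4% against a background of 16.6%, and 12 fell, or 12.6% against 14.5%. The median log2 fold change was 0.23, or 0.06 net of the length trend. Then 15 of the 95 rose and 11 fell, where 10.2% and 9.42% of all tested genes did. The list's median transcript was 4055 bases long. CDK6, a G1 kinase gene, rose to 90.4 and 93.8 CPM, against 32.3 CPM in the control (log2 fold change 1.51, edgeR adjusted p = 1.89e-08). ITGAV, an integrin subunit gene, rose by 1.39 and ANKH, a pyrophosphate exporter gene, by 1.35 on the log2 scale. B2M, the invariant chain of HLA class I and itself an interferon-induced gene, fell to 502 and 561 CPM, against 2642 CPM in the control (log2 fold change -2.31, edgeR adjusted p = 6.51e-19). SAT1, a polyamine acetyltransferase gene, and TMEM50A, a membrane protein gene, fell by 1.11 and 0.82 on the log2 scale. These 6 passed net of the length trend as well, at smaller sizes: CDK6 read 0.83, ITGAV 0.97, ANKH 0.84, B2M -1.85, SAT1 -0.69 and TMEM50A -0.67.

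**Figure D3:**
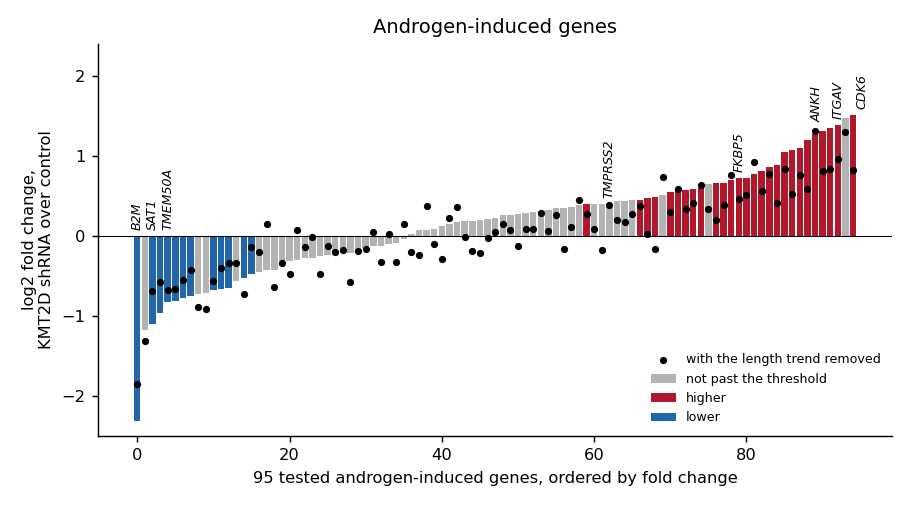
Log2 fold change of the libraries labelled KMT2D shRNA over the control for the 95 tested androgen-induced genes, ordered left to right; bars are coloured where edgeR's adjusted p was under 0.05, and black points show the value net of the length trend. The 27 red bars and 12 blue bars lie on both sides of 0, with FKBP5 among the red and TMPRSS2 among the grey.

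Coregulators of steroid receptors were the list with the largest share of calls in the higher direction among those with 10 or more tested genes: 12 of 19 rose, or 63.2% against 16.6%, and 7 did not pass. NCOA2, a receptor coactivator gene, rose to 60.6 and 47.9 CPM, against 11.6 CPM in the control (log2 fold change 2.22, edgeR adjusted p = 1.19e-10). KMT2A, a histone methyltransferase gene, rose by 1.32 and EP300, a histone acetyltransferase gene, by 1.202 on the log2 scale. Transcripts on this list had a median length of 6943 bases, and its median was 0.25 net of the length trend in place of 0.62. Then 6 of the 19 rose, where 10.2% of all tested genes did. The 6 included NCOA2 at 1.85, EP300 at 0.66 and KMT2A at 0.49.

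STEAP1 and STEAP2 encode 6-transmembrane proteins of the prostate epithelium from the STEAP family of metalloreductases, STEAP1 without the NADPH-binding domain of its relatives. They are next to each other on the chromosome, and STEAP1 fell while STEAP2 did not pass. STEAP1 had 225 and 171 counts in libraries 1 and 2, against 359 in the control. The ratio was 0.659 in library 1 (95% counting interval 0.556 to 0.781) and 0.517 in library 2 (0.428 to 0.622), so both lay below the control. STEAP1 averaged 38.3 ± 6.56 CPM (SD, n = 2), against 65.2 CPM, a log2 change of -0.76 (edgeR SE 0.19, adjusted p = 0.00128). Its transcript is the shortest of the 8 at 1330 bases, where the length trend was -0.36 in both libraries, and with the trend taken out STEAP1 read -0.41 and did not pass (edgeR adjusted p = 0.122). DESeq2 did not call it (-0.76, adjusted p = 0.158), and it passed in 3 of 8 alternatives with a test. STEAP1B, a close copy that could share reads with it, had 1 count in library 2 and was not listed in the others.

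STEAP2 had 327 and 316 counts in libraries 1 and 2, against 302 in the control. It averaged 62.4 ± 0.135 CPM (SD, n = 2), against 54.9 CPM, ratios of 1.14 in both libraries with intervals that include 1 (0.971 to 1.34 and 0.967 to 1.33). The log2 fold change was 0.19 (SE 0.18, edgeR adjusted p = 0.472), and -0.22 net of the length trend (edgeR adjusted p = 0.426). The length listed for its 6 transcripts was 6864 and 6793 bases in libraries 1 and 2, against 6410 in the control, and genes of that length read 0.43 and 0.39 in general. The direction of STEAP2 thus turned with the trend. The difference between STEAP1 and STEAP2 in response was not tested.

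The 250 bases before the starts of this neighbouring pair (RefSeq, GRCh38.p14, plus strand) are shown because the genes sit side by side. Their estimates had opposite signs only with the length trend left in. Net of the trend both estimates were negative and neither passed. The difference between the genes was tested in neither case. Capitals mark matches on either strand to TGTTTAC (the forkhead core bound by FOXA factors), to TATAAA (the TATA box) and to the HOXB13 core, CCAAT box and GC box given above. The HOXB13 core and the CCAAT box share letters and can overlap.
STEAP1, chr7:90154219-90154468: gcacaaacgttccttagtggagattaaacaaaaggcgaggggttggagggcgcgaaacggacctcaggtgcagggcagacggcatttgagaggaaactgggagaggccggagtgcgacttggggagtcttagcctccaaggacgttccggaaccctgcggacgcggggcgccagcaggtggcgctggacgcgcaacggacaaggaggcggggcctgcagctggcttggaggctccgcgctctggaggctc
STEAP2 first start, chr7:90211490-90211739: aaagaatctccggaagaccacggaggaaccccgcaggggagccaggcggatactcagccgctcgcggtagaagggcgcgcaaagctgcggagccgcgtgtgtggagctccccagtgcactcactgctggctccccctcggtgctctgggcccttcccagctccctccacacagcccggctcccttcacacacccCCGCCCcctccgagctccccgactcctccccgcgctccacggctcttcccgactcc
STEAP2 second start, chr7:90213570-90213819: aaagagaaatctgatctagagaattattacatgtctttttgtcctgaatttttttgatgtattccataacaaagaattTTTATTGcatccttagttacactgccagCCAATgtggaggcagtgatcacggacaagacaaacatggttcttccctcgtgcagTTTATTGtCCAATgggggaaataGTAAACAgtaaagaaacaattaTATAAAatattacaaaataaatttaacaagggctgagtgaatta
The STEAP1 window holds none of these letters and has 21 CG pairs. The first STEAP2 window has 21 CG pairs and 1 GC box. The second has 2 CG pairs and 32.8% G and C, and holds a forkhead core at -66, HOXB13 cores at -172 and -89, CCAAT boxes at -144 and -81 and a TATA box at -44. Over all windows a forkhead core is found in 2.98%, a HOXB13 core in 3.66%, a CCAAT box in 32.0%, a TATA box in 10.7% and a GC box in 42.6%. A match is a description of letters and shows no binding.

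Other STEAP genes were not called: STEAP3, a ferrireductase of endosomes, had 89.8 and 75.3 CPM in libraries 1 and 2, against 84.6 CPM in the control (log2 fold change -0.04, edgeR adjusted p = 0.906), and STEAP4 had 10 and 8 counts, against 16 (-0.73, SE 0.67, adjusted p = 0.439). Other genes of iron handling on the same list were called in both directions. TFRC, the transferrin receptor, rose to 788 and 732 CPM, against 182 CPM in the control, a log2 change of 2.06 (edgeR SE 0.18, adjusted p = 1.197e-13). ACO1, which as an iron-free protein binds iron-responsive elements in some transcripts, rose to 71.1 and 63.3 CPM, against 24.0 CPM (log2 fold change 1.49, edgeR adjusted p = 9.30e-08), and its relative IREB2 rose by 0.71 on the log2 scale. FTH1, the ferritin heavy chain, fell to 2425 and 3264 CPM, against 5938 CPM in the control (log2 fold change -1.06, SE 0.14, edgeR adjusted p = 4.26e-08). HMOX1, which frees iron from haem, fell to 12.2 and 23.3 CPM, against 42.9 CPM (log2 fold change -1.27, edgeR adjusted p = 1.84e-05). In all, 3 of 14 tested genes of the list rose and 4 fell (21.4% and 28.6%, against 16.6% and 14.5% of all tested genes). The other gene that fell was FTL, the ferritin light chain, at -0.47 and at 0.02 with the trend taken out. Net of the length trend TFRC (1.79), ACO1 (1.39), FTH1 (-0.68) and HMOX1 (-0.97) passed, and IREB2 (0.33, edgeR adjusted p = 0.225) did not.

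**Figure D4:**
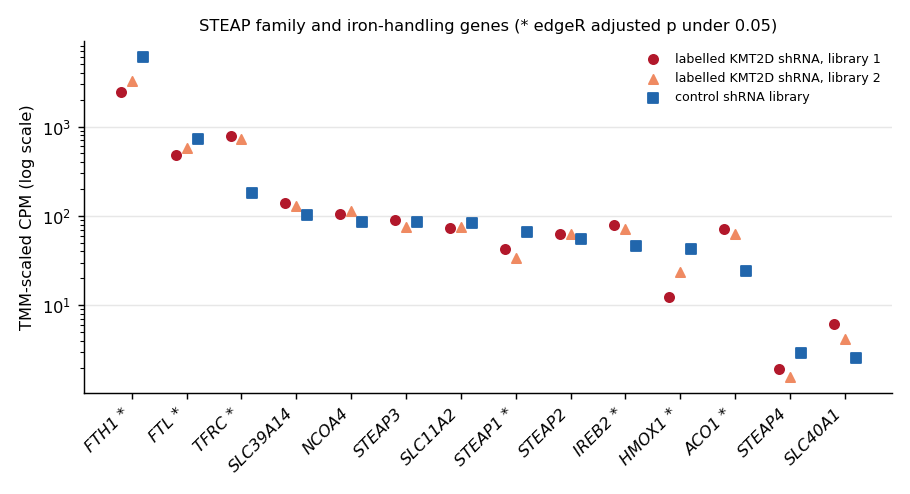
TMM-scaled CPM (log axis) of the 14 tested STEAP and iron-handling genes in the 2 libraries labelled KMT2D shRNA and the control library, ordered by the control; each point is 1 library and an asterisk marks an edgeR adjusted p under 0.05. STEAP1 lies below the control in both libraries, STEAP2 lies at 62.5 and 62.3 CPM against 54.9 CPM, and TFRC at 788 and 732 CPM against 182 CPM.

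FOLH1, the gene of prostate-specific membrane antigen, a folate hydrolase that is a target of imaging and therapy in prostate cancer, was at or under the floor. It had 3 and 2 counts in libraries 1 and 2, against 3 in the control, so no fold was drawn and a difference was not detectable at this depth. FOLH1B, a near-identical copy that could share its reads, was listed in 0 tables. Folate genes around it were present. Of 6 tested, only FPGS, which adds glutamates to folate inside the cell, passed, where 31.1% of all tested genes did. FPGS fell to 47.2 and 56.4 CPM, against 72.3 CPM in the control (log2 fold change -0.48, edgeR adjusted p = 0.0368, or 0.149 net of the length trend). GGH, a lysosomal enzyme that removes those glutamates, had a log2 change of 0.29 (edgeR adjusted p = 0.246) and passed net of the length trend (0.61, adjusted p = 0.0144). SLC19A1, the reduced folate carrier, had a log2 fold change of 0.02 (edgeR adjusted p = 0.946).

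SLC45A3, or prostein, a transporter of prostate epithelium, was the member with the smallest difference. It had 143 and 136 counts in libraries 1 and 2, against 154 in the control. It averaged 27.1 ± 0.364 CPM (SD, n = 2), against 28.0 CPM, with ratios of 0.977 (95% counting interval 0.772 to 1.23) and 0.958 (0.755 to 1.21). The log2 fold change was -0.05 (SE 0.21, edgeR adjusted p = 0.897), or -0.11 net of the length trend, and both intervals include 1. Its neighbours ELK4, an ETS factor gene often spliced to SLC45A3 in prostate cancer, and NUCKS1 had log2 fold changes of 0.48 and 0.49 (edgeR adjusted p = 0.0368 and 0.0251), and -0.16 and 0.10 net of the length trend (0.586 and 0.746). In its family SLC45A1 fell to 8.22 and 8.48 CPM, against 14.9 CPM in the control (log2 fold change -0.83, edgeR adjusted p = 0.0265, or 0.0885 with the trend taken out).

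Members that were called had plain patterns shared with many genes. By distance between pairs of log2 ratios (library 1 and library 2 over the control, 3 libraries in all), the nearest genes to HOXB13 were PRKAB2 and FHIP1A, with 228 of 11907 genes within 0.1. NUP214 and PALLD were nearest to FKBP5, with 180 genes within 0.1. PXMP2 and PFDN2 were nearest to STEAP1, with 39. Across the 7 tested genes, 4 lay above the control in both libraries and 2 below it, where 41.5% and 42.7% of all tested genes did so, and FOXA1 overlapped it.

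**Figure D5:**
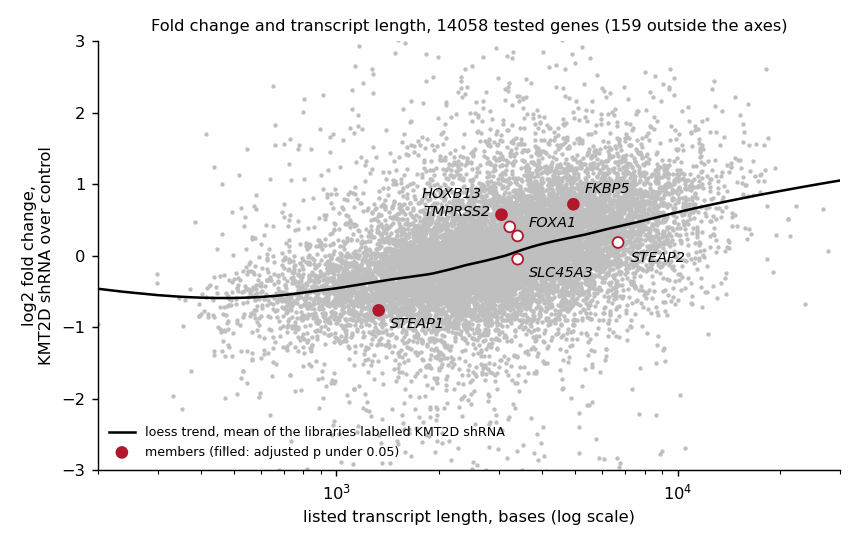
Log2 fold change of the libraries labelled KMT2D shRNA over the control against listed transcript length (log axis) for tested genes (grey), with the loess trend (line) and the 7 tested members (red, filled where the edgeR adjusted p was under 0.05). HOXB13, TMPRSS2, FOXA1 and SLC45A3, at 3047 to 3398 bases, lie where the trend is near 0, STEAP1 at 1330 bases lies where it is -0.36, and FKBP5 and STEAP2 lie where it is positive.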

How the data were processed

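RNA from 3 PC-3 libraries was sequenced on a BGISEQ-500 after poly(A) selection and random priming, per the labels' protocols. Strand marking is not described there, and reads of overlapping or antisense genes could not be separated. HISAT, Bowtie2 and hg19 are named in the submitters' processing notes; the counting tool is not given in the sources used here. The authors deposited, per the file headers, expected counts (estimated reads per gene, not normalized), FPKM and transcript length in 1 table per library. Expected counts were rounded, and a gene left out of a table was taken as 0. Tables were joined on the Entrez identifier (18331 in any library). Symbols came from RefSeq genes of GRCh38.p14 (99.5% named), so no hg19 coordinates are given.

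The test was edgeR 4.0.16 in R 4.3.3: filterByExpr by group, TMM scaling, quasi-likelihood F test on group, Benjamini-Hochberg over 14058 genes, threshold 0.05, with 1 residual degree of freedom (common dispersion 0.0119). The prior had 51.0 degrees of freedom, so the spread used for each gene was largely that shared over genes. SE was derived from the F statistic, and ratios per library carry exact binomial intervals that cover counting error only. The chi-square per gene between libraries 1 and 2 was 5.60, more than sampling alone gives. Each library was counted as 1 sample, but this value cannot show that they are independent, since the spread may be technical. Log ratios per library used a prior count of 2. The length trend was a loess (span 0.3) of log ratio on log2 length per library, removed as an offset. The fit was tried on simulated data with 200 changed genes, a dispersion shared by all genes and no length trend. The real data differ in these respects, so that trial does not bear on the calls reported here. DESeq2 1.42.0 and limma 3.58.1 on log2(FPKM + pseudocount), with pseudocounts of 1 and 0.1, were alternatives.

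Members and the 21 gene lists, written from general knowledge, were chosen with earlier results of these data known. Genes named from a list were up to 3 each way past the threshold, ranked by the less changed of libraries 1 and 2. No replicate number pairs the groups. Some marker genes are not reported here.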

Additional observations from a re-analysis of the deposited data

How the results depend on the processing

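The calls of the 3 members depended on the fit. Of all genes, 2327 were called higher and 2042 lower, with 2 and 1 members. With the length trend removed these were 1428 and 1324, with 1 and 0 members; without a filter on low counts 1051 and 858, with 0 and 0 members by edgeR; by DESeq2 755 and 459, with 1 and 0; by limma on log2(FPKM + 1) 519 and 478, with 0 and 0; and by limma on log2(FPKM + 0.1) 1 and 22, with 0 and 0. The 3 settings with 0 and 0 members each had 2 higher and 1 lower at an unadjusted p under 0.05, where all genes had 2730 and 2485 of 18283 without a filter, and 2472 and 2230 or 2362 and 1836 of 14058 by limma (pseudocounts of 1 and 0.1). The members' counts were near those shares. The cause of the differences between tools was not tested. DESeq2 size factors, library totals and a mean of 5 CPM or more kept 2 and 1. STEAP2 reversed with the length trend removed (-0.22), as did KMT2D (-0.60), which passed there (edgeR adjusted p = 0.00922). Over all alternatives HOXB13 ran from 0.53 to 0.62, FKBP5 from 0.46 to 0.95 and STEAP1 from -0.94 to -0.41 in log2 fold change. For the other genes followed over the alternatives, 105 readings lost a call and 298 were the same. A further 5 moved when a library was left out and 1 reversed. Leaving out library 1 or library 2 left no residual degrees of freedom, so it gave values without a test or a count of calls, and the control could not be left out. No paired analysis was possible because the control library carries no replicate number. The library totals of 5123836 to 5559499 counts limit FOLH1, at 3 counts or fewer.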
